A study of Macaca mulatta with 6 samples.

Results

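Genes of germline RNA control and meiosis were examined in bulk RNA sequencing of cultured SSCs of the rhesus monkey. SSCs are spermatogonial stem cells, which renew themselves in the testis and produce the cells that become sperm. The set was a list of 49 gene symbols, and its members were the genes of the deposited table that carry 1 of these symbols. The table listed 39 of the 49 symbols among 17795 genes, made up of 16 piRNA genes, 7 genes of germline RNA binding, 13 of chromosome synapsis and recombination and 3 of cohesin. LIN28A, LIN28B, SYCP3, SYCE2, SYCE3, SPO11, DMC1, MND1, RAD21L1 and MEI1 were not analysed here.

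Human platelet-derived growth factor (PDGF) was added to the cultures behind 3 libraries, called SSC PDGF+, and the other 3 libraries, SSC PDGF-, are labelled PDGFNO and serve as the control without it. By the culture methods, cells were embedded in basement membrane extract droplets and fed a serum-containing medium with GDNF, EGF, LIF, bFGF and Wnt3a, growth factors that both groups would then share, and no genetic change is described. The labels give the tissue of all libraries as testis, put replicate 1 of each group in batch 1 and replicates 2 and 3 in batch 2, and state neither donor nor animal age nor days in culture. Neither they nor the methods say whether replicates came from separate cultures, so p-values measure only the spread between these libraries.

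Piwi-interacting RNAs (piRNAs) are small germline RNAs that guide PIWI proteins to transposon and other transcripts, and their precursors are processed in germ granules and on mitochondria by helicases, nucleases and Tudor-domain proteins. In meiosis, homologous chromosomes are broken, paired and joined along the synaptonemal complex, on axes whose cohesin includes subunits that mitotic cells do not use. RNA-binding proteins such as the DAZ family and YBX2 store and translate the messages of germ cells, many of them long after they are transcribed.

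Library totals ranged from 13095467 to 14102697 counts in SSC PDGF+ and from 10593805 to 11605908 in SSC PDGF-. Levels are given as counts or as counts per 1000000 counts of the library (CPM) after TMM normalization in edgeR, and log2 fold changes are SSC PDGF+ over SSC PDGF-, negative where PDGF+ was lower. A gene was called when its Benjamini-Hochberg adjusted p over all 11539 tested genes was under 0.05 in the quasi-likelihood test of edgeR, without a term for replicate or batch. The median log2 fold change over all tested genes was 0.02.

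Of the 39 listed members, 24 passed the count filter and were tested, and 13 of these were lower in SSC PDGF+, while 10.7% of all tested genes were called lower. No member was called higher in edgeR, against 7.61% of all tested genes, and none was higher at an unadjusted p under 0.05, nor with DESeq2 or limma-voom. Of the 15 listed members that were not tested, 12 had few counts and ASZ1, MSH4 and SMC1B had none, which over all 6 libraries allows at most 0.0408 CPM of the library totals. The count of tested members needs care, because 12 of the 24 reached the filter level of 0.8097 CPM in all 3 libraries only in SSC PDGF-. Genes admitted this way are selected for a low level in SSC PDGF+, so their calls say little by themselves. Of these 12 members 10 were called lower. Of the 863 tested genes that were not at the level in every SSC PDGF+ library, 47.5% were. That is a wider set, since it did not require all 3 SSC PDGF- libraries to be at the level. Among the 12 members that were above the filter level in every SSC PDGF+ library, YBX2, HSF2BP and REC8 were called lower, 3 of 12, against 7.68% of the 10676 such genes.

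**Figure D1:**
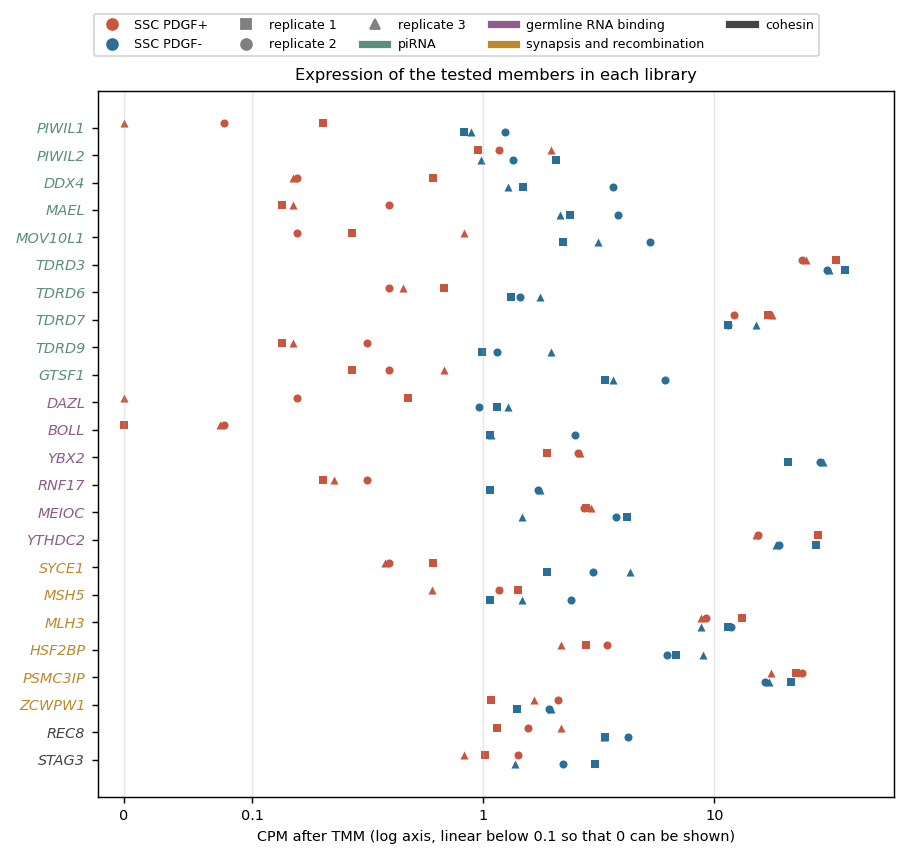
CPM after TMM normalization (log axis, linear below 0.1) of the 24 tested members in each of the 6 libraries, coloured by group, with a marker shape for each replicate. The 3 SSC PDGF+ libraries of YBX2 lie near 2.37 CPM and the 3 SSC PDGF- libraries near 26.2 CPM, whereas the libraries of TDRD3, MLH3 and YTHDC2 overlap.

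Some sums do not depend on the filter. Over all 39 listed members, SSC PDGF- was 1.52-fold above SSC PDGF+, with 1.37-fold for the piRNA genes, 2.20-fold for germline RNA binding, 1.19-fold for synapsis and recombination and 2.15-fold for cohesin. TDRD3, TDRD7, MLH3, PSMC3IP and YTHDC2 are also expressed outside the germline and held most of the members' counts, and they were set apart with earlier results of these data known. Summed over these 5, levels were 95.3 ± 21.6 CPM of the library total in SSC PDGF+ and 96.1 ± 15.4 in SSC PDGF- (SD, n = 3), which differed by less than the spread between replicates. Summed over the other 34 listed members, levels were 19.2 ± 0.860 CPM of the library total in SSC PDGF+ and 77.6 ± 6.93 in SSC PDGF- (SD, n = 3). The groups did not overlap, and SSC PDGF- was 4.04-fold higher, 3.87-fold in batch 1 and 4.12-fold in batch 2. By role, and without those 5 genes, the piRNA genes were 4.81-fold, the germline RNA-binding genes 5.96-fold and the synapsis and recombination genes 2.60-fold higher in SSC PDGF-. YBX2 carried most of the RNA-binding value, which was 2.58-fold over the 5 genes left without it. In bulk RNA, fewer cells of a type and less RNA per cell cannot be told apart.

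YBX2, MAEL and BOLL were among the members with the smallest adjusted p. The 250 bases before the annotated start of each of these 3 genes are shown because they differ widely in CpG content. They are RefSeq Mmul_10 sequence, written along the gene's strand, with each CpG in capitals. YBX2 lies at chr16:7056860-7063187 on the minus strand and its window at chr16:7063188-7063437. MAEL lies at chr1:24344220-24377561 on the plus strand and its window at chr1:24343970-24344219. BOLL lies at chr12:84811641-84873169 on the minus strand and its window at chr12:84873170-84873419. None of the 3 windows overlaps an annotated exon.
YBX2: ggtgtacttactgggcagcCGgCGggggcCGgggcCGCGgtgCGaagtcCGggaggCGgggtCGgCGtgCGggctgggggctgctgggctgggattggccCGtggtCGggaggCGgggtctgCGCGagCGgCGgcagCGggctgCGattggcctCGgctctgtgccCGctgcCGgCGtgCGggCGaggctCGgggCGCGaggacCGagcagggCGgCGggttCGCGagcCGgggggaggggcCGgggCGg
MAEL: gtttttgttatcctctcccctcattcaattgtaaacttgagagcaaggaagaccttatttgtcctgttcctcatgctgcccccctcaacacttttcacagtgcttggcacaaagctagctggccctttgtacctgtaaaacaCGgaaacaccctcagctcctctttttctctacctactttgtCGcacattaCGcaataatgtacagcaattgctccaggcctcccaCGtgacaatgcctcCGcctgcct
BOLL: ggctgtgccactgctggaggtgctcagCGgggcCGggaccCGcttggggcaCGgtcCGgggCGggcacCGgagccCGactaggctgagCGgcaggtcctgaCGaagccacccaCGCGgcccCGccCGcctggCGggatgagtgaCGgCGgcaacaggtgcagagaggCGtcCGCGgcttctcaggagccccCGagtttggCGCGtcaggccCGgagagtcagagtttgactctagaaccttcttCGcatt
These windows held 37 CpGs in YBX2, 5 in MAEL and 25 in BOLL, and the median over the windows of all 20773 annotated genes was 12. Of the 12 called members whose windows were examined, HSF2BP held the most with 39, in a window that overlaps an exon of RRP1B, and MOV10L1 had as many as YBX2, while TDRD6 had 1. Low and high CpG content were therefore both present among the members that were lower in SSC PDGF+.

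Motif letters were searched on both strands of the same 12 windows. AACNGNC, the core bound by MYB factors, was in the windows of 5 of the 12 members (PIWIL1, MOV10L1, TDRD6, TDRD9 and RNF17), and 25.5% of all windows held it. TCCCGC, an E2F core, was in the windows of PIWIL1 and BOLL and in 24.2% of all. CACGTG was in the window of MAEL and in 6.45% of all, TGACGTCA was in that of MOV10L1 and in 1.47% of all, and TATAAA was in none of the 12 and in 9.84% of all. None of these motifs contains another. Annotated starts can lie away from the start used in a cell, and these matches describe the letters of the windows and not sites of binding.

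The piRNA genes gave 7 called members of 10 tested, with a median log2 fold change of -2.72. All 7 reached the filter level in all 3 libraries only in SSC PDGF-, so this count and median say little by themselves. Of the 863 tested genes not at that level in every SSC PDGF+ library, 47.5% were called lower. PIWIL2, TDRD3 and TDRD7, which were above it in every SSC PDGF+ library, were not called. MAEL, a germ granule protein needed for transposon silencing, had 2, 5 and 2 counts in SSC PDGF+ replicates 1, 2 and 3, against 29, 40 and 22 in SSC PDGF-. GTSF1, a zinc finger cofactor of PIWI proteins, had 4, 5 and 9 counts with PDGF against 41, 64 and 37 without. MOV10L1, a helicase that binds piRNA precursors (chr10:1317593-1388366, minus strand), had 4, 2 and 11 counts with PDGF against 27, 55 and 32 without. In all 3 genes every SSC PDGF+ library was below every SSC PDGF- library. The log2 fold change in edgeR was -3.59 (SE 0.53) for MAEL, with an adjusted p of 0.00325. It was -3.27 (SE 0.46, adjusted p = 0.0026) for GTSF1 and -3.05 (SE 0.61, adjusted p = 0.0114) for MOV10L1. Each of these calls held with any single library left out, but the log2 fold change of MOV10L1 moved to -3.96 without SSC PDGF+ replicate 3 and that of MAEL to -4.19 without SSC PDGF+ replicate 2.

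The other called piRNA genes rested on fewer counts. PIWIL1, the PIWI protein of pachytene spermatocytes and round spermatids (chr11:130175278-130209965, plus strand), had 3, 1 and 0 counts in SSC PDGF+ against 10, 13 and 9 in SSC PDGF-. DDX4, the germ cell helicase also known as VASA (chr6:54052920-54125502, plus strand), had 9, 2 and 2 counts with PDGF against 18, 38 and 13 without. TDRD9, a Tudor-domain helicase (chr7:166252166-166379970, plus strand), had 2, 4 and 2 counts with PDGF against 12, 12 and 20 without. None of these overlapped between groups, although DDX4 replicate 1 with PDGF was much nearer to the PDGF- libraries than its other 2. Log2 fold changes in edgeR were -3.20 (SE 0.75, adjusted p = 0.0215) for PIWIL1, -2.72 (SE 0.68, adjusted p = 0.0284) for DDX4 and -2.72 (SE 0.57, adjusted p = 0.0139) for TDRD9. Single libraries decided these calls. Without SSC PDGF+ replicate 1 the log2 fold change was -4.33 for PIWIL1 and -3.69 for DDX4, and that of DDX4 was -2.10 without SSC PDGF- replicate 2. The adjusted p of PIWIL1 was 0.0800 and 0.0652 without SSC PDGF+ replicates 2 and 3, and 0.0730 and 0.0579 without SSC PDGF- replicates 2 and 3. That of DDX4 was 0.0956 and 0.0965 without SSC PDGF+ replicates 2 and 3 and 0.101 without SSC PDGF- replicate 2, and that of TDRD9 was 0.0639 without SSC PDGF+ replicate 3 and 0.0566 without SSC PDGF- replicate 3.

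TDRD6, a scaffold of the chromatoid body of spermatids (chr4:122704261-122721481, minus strand), had 10, 5 and 6 counts in SSC PDGF+ against 16, 15 and 18 in SSC PDGF-. It was lower in every SSC PDGF+ library (log2 fold change -1.54, SE 0.42, edgeR adjusted p = 0.0395). The call held only without SSC PDGF- replicate 1, and leaving out any of the other 5 libraries gave adjusted p of 0.0607 to 0.142. Of its 10304 exonic bases, 2668 overlap exons of PLA2G7 or SLC25A27 on the same strand and 2453 on the other strand, so its counts are uncertain.

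The remaining tested piRNA genes did not pass. PIWIL2, the PIWI protein of spermatogonia and early spermatocytes, had 14, 15 and 26 counts with PDGF against 25, 14 and 10 without. Its groups overlapped (log2 fold change -0.12, SE 0.45, edgeR adjusted p = 0.878), and its log2 difference was -1.10 in batch 1 and 0.38 in batch 2. TDRD3, a widely expressed Tudor protein that partners a topoisomerase, had 498, 306 and 332 counts with PDGF against 448, 319 and 318 without. Its log2 fold change was -0.26 (SE 0.19, edgeR adjusted p = 0.377). Blocking by replicate number in edgeR gave 0.0295, and the adjusted p was 0.0167 to 0.75 over all alternatives. TDRD7, a germ granule protein that the lens also uses, had 252, 155 and 236 counts with PDGF against 139, 120 and 155 without. Its log2 fold change was 0.30 (SE 0.22, edgeR adjusted p = 0.378), and its groups overlapped.

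Among germline RNA-binding genes, 3 of 6 tested members were lower in SSC PDGF+, with a median log2 fold change of -2.45 over the 6. Of the 6, DAZL, BOLL and RNF17 reached the filter level in all 3 libraries only in SSC PDGF-, so this count and median say little by themselves. Of the 863 tested genes not at that level in every SSC PDGF+ library, 47.5% were called lower. Among the 3 called members, only YBX2 was above that level in every library. YBX2, a Y-box protein that binds and stores messages in spermatocytes and spermatids, had 28, 33 and 35 counts in SSC PDGF+ against 252, 298 and 301 in SSC PDGF-. Both groups were tight and far apart, at 2.37 ± 0.413 and 26.2 ± 4.83 CPM (SD, n = 3), an 11.1-fold difference. The log2 fold change was -3.47 (SE 0.24), with an edgeR adjusted p of 1.4e-04, and lay between -3.63 and -3.32 when each library was left out in turn. Per kilobase of exon, YBX2 was the highest member in SSC PDGF- at 16.5 CPM per kb and fell to 1.48 in SSC PDGF+, where TDRD3, PSMC3IP, TDRD7, YTHDC2 and MLH3 stood above it at 7.82, 5.18, 3.60, 3.10 and 2.08.

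BOLL, a DAZ-family protein of meiotic cells, had 0, 1 and 1 counts in SSC PDGF+ against 13, 26 and 11 in SSC PDGF-. With only 2 counts in SSC PDGF+, its share of the library was 30.9-fold higher in SSC PDGF- (exact 95% interval 8.11 to 262), and the edgeR adjusted p was 0.00604. RNF17, a Tudor-domain protein of germ granules (chr17:4273232-4385439, plus strand), had 3, 4 and 3 counts with PDGF against 13, 18 and 18 without. Its log2 fold change was -2.57 (SE 0.49, edgeR adjusted p = 0.00926). The groups did not overlap in either gene, and both calls held with any single library left out. Antisense exons of uncharacterized genes overlap 60 bases of BOLL and 198 of RNF17.

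DAZL, the DAZ-family translation factor of germ cells, had 7, 2 and 0 counts in SSC PDGF+ against 14, 10 and 13 in SSC PDGF-. Every SSC PDGF+ library was below every SSC PDGF- library, but the edgeR adjusted p was 0.0688 (log2 fold change -2.32, SE 0.76). The fit with the replicate block gave an adjusted p of 0.0118, and over all alternatives it was 0.00381 to 0.19. MEIOC and YTHDC2 form a complex needed for entry into meiosis, YTHDC2 being an RNA helicase that is expressed widely. MEIOC had 41, 35 and 39 counts with PDGF against 51, 39 and 15 without, and YTHDC2 had 417, 198 and 201 with PDGF and 335, 199 and 189 without. Both overlapped between groups, with log2 fold changes of -0.16 (SE 0.39) and -0.15 (SE 0.29) and edgeR adjusted p of 0.804 and 0.755.

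**Figure D2:**
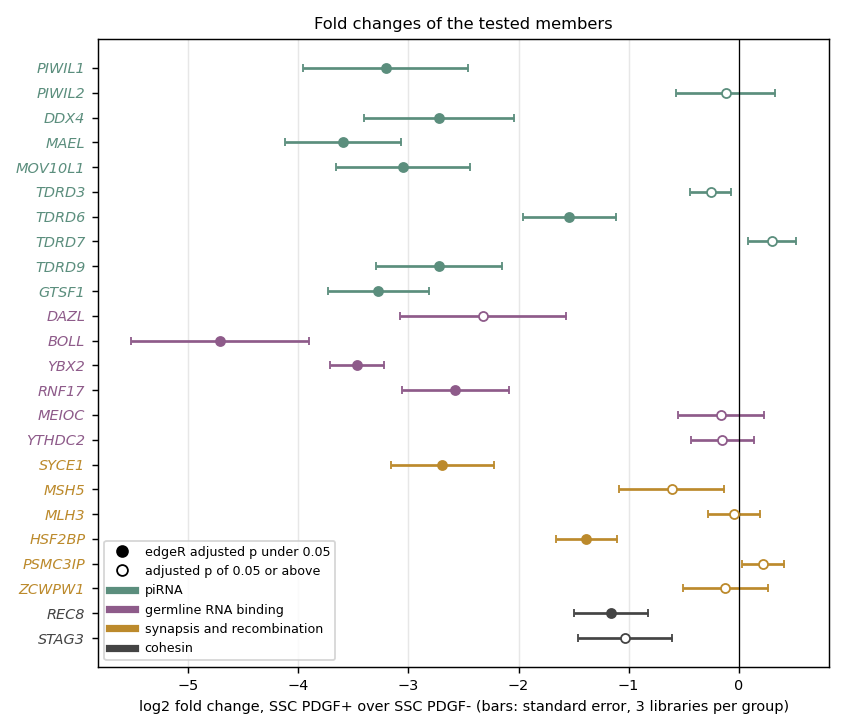
Log2 fold change of SSC PDGF+ over SSC PDGF- for the 24 tested members, coloured by role, with standard errors from edgeR. Filled points passed an adjusted p of 0.05. All 13 filled points lie left of 0, from -4.71 for BOLL to -1.16 for REC8, and the open points of TDRD7 and PSMC3IP lie to the right.

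Genes of synapsis and recombination gave 2 called members of 6 tested, where 10.7% of all tested genes were called lower. The median log2 fold change of the 6 was -0.37. SYCE1 and MSH5 reached the filter level in all 3 libraries only in SSC PDGF-. Of the 863 tested genes not at that level in every SSC PDGF+ library, 47.5% were called lower. HSF2BP was above that level in every library. Of the 10676 genes at that level in every SSC PDGF+ library, 7.68% were called lower. SYCE1, a protein of the central element of the synaptonemal complex (chr9:134041921-134056669, minus strand), had 9, 5 and 5 counts in SSC PDGF+ against 23, 31 and 44 in SSC PDGF-. The groups did not overlap, and the log2 fold change was -2.69 (SE 0.47, edgeR adjusted p = 0.00623), a call that held with any single library left out. HSF2BP, which brings BRCA2 to meiotic DNA breaks (chr3:3074239-3194888, plus strand), had 41, 44 and 29 counts with PDGF against 83, 65 and 91 without. It was lower in every SSC PDGF+ library (log2 fold change -1.39, SE 0.28, edgeR adjusted p = 0.0115), and the adjusted p rose to 0.0516 without SSC PDGF+ replicate 3.

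The other 4 tested genes of this role overlapped between groups and did not pass. MSH5, which stabilizes crossover intermediates, had 21, 15 and 8 counts with PDGF against 13, 25 and 15 without, with log2 differences of 0.39 in batch 1 and -1.13 in batch 2. ZCWPW1, a reader of the histone marks made by PRDM9, had 16, 27 and 22 counts with PDGF against 17, 20 and 20 without. MLH3, a mismatch repair protein that resolves crossovers, had 194, 117 and 116 counts with PDGF against 139, 123 and 89 without. PSMC3IP, a cofactor of strand exchange that dividing somatic cells also express, had 334, 307 and 234 counts with PDGF against 260, 173 and 175 without. The lowest and highest log2 fold changes of these 4 were -0.61 (SE 0.48) for MSH5 and 0.22 (SE 0.19) for PSMC3IP, with edgeR adjusted p of 0.412 and 0.467. MLX exons on the other strand overlap 1136 bases of PSMC3IP, and the strand setting of the counting is not given in the sources used here.

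Of the meiotic cohesin subunits, REC8 and STAG3 were tested. REC8, the subunit that closes the ring of meiotic cohesin (chr7:86259929-86269078, plus strand), had 17, 20 and 29 counts in SSC PDGF+ against 41, 44 and 34 in SSC PDGF-. STAG3, the subunit that binds this ring, had 15, 18 and 11 counts with PDGF against 37, 23 and 14 without. In CPM, REC8 did not overlap between groups and STAG3 did. REC8 was called lower (log2 fold change -1.16, SE 0.34, edgeR adjusted p = 0.0479), but the call was lost whichever library was left out, with adjusted p of 0.0501 without SSC PDGF- replicate 1 to 0.148 without SSC PDGF- replicate 2. STAG3 had a log2 fold change of -1.03 (SE 0.42) and an edgeR adjusted p of 0.129.

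For the 12 members with too few counts for the test, counts were summed over each group and the ratio of their shares of the library totals was given an exact 95% interval, which covers counting error only. DDX25, a testis helicase that carries messages into the chromatoid body, had 2, 4 and 1 counts in SSC PDGF+ against 24, 7 and 27 in SSC PDGF-, a share 10.2-fold higher in SSC PDGF- (4.66 to 26.6), or 16.2-fold without SSC PDGF+ replicate 2. HORMAD1, which coats unsynapsed chromosome axes, had 2, 0 and 3 counts with PDGF against 25, 5 and 7 without, a ratio of 9.14 (3.58 to 29.8). SSC PDGF- replicate 1 held most of the HORMAD1 counts, and the ratio was 4.58 without it and 15.3 without SSC PDGF+ replicate 3. TEX101, a germ cell surface protein and not part of the synaptonemal complex, had no count with PDGF and 1, 12 and 9 without. Against a floor of 3 counts over the group it was at least 9.06-fold lower in SSC PDGF+ if the 22 counts without PDGF are taken as exact, and the lower limit of the exact 95% interval was 6.77. Without the count filter, edgeR gave adjusted p of 0.0176 for DDX25, 0.0625 for HORMAD1 and 0.0506 for TEX101, and 8.28% of the 14791 genes in that fit were called lower.

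TDRKH, a mitochondrial Tudor protein of piRNA trimming, had 4, 5 and 0 counts with PDGF against 7, 15 and 15 without, a ratio of 5.08 (2.41 to 12.0), or 7.75 without SSC PDGF+ replicate 2. Its exons share 262 bases with OAZ3 on the other strand, a gene with 100, 102 and 99 counts with PDGF against 695, 798 and 868 without, so reads of the pair may have been mixed. HORMAD2, a relative of HORMAD1, had 2, 5 and 0 counts with PDGF against 14, 6 and 8 without, a ratio of 4.94 (2.11 to 13.4), or 11.7 without SSC PDGF+ replicate 2. PLD6, a mitochondrial nuclease of piRNA biogenesis, had 0, 1 and 3 counts with PDGF against 7, 5 and 0 without, a ratio of 3.71 (1.12 to 15.8). In these 3 genes the interval lay above 1, and PLD6 overlapped between groups. The ratio of PLD6 ranged from 2.38 without SSC PDGF- replicate 1 to 9.91 without SSC PDGF+ replicate 3, and it was 2.42 without SSC PDGF+ replicate 1. Its lower limit fell below 1, to 0.513 to 0.904, without replicate 1 or 2 of either group.

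For the rest the interval included 1 or no ratio was possible. MEIOB, a single-strand DNA-binding protein of meiosis, had 5 counts in SSC PDGF+ against 12 in SSC PDGF-, and TDRD5, a Tudor protein of germ granules, had 6 and 11. SYCP1, the filament that bridges paired chromosomes, had 1 and 6 counts, TDRD1, a Tudor partner of PIWI proteins, had 1 and 2, and SYCP2, a protein of the chromosome axis, had 3 and 2. PIWIL4, the nuclear PIWI protein of early male germ cells, had 3 counts, all in SSC PDGF+ replicate 3, and 0 in SSC PDGF-, which lies at the floor. With all libraries, a difference in these genes was not detectable at this depth. The lower limit rose to 1.49 for MEIOB without SSC PDGF+ replicate 2 and to 2.07 for TDRD5 without SSC PDGF+ replicate 3. For MEIOB it was 1.03 and 1.13 without SSC PDGF- replicates 1 and 3. For SYCP1 it was 1.33 without SSC PDGF- replicate 2 or 3, but all 6 of its SSC PDGF- counts lay in replicate 1. Over all 39 listed members, the 3 SSC PDGF+ libraries were below the 3 SSC PDGF- libraries in 19, where 15.4% of all 17795 listed genes were, and among tested members in 14 of 24, where 19.3% of all tested genes were. Without the filter, 6.19% of genes were called higher and no member was. In 0 of the 24 tested members were they all above, where 18.2% of all tested genes were.

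**Figure D3:**
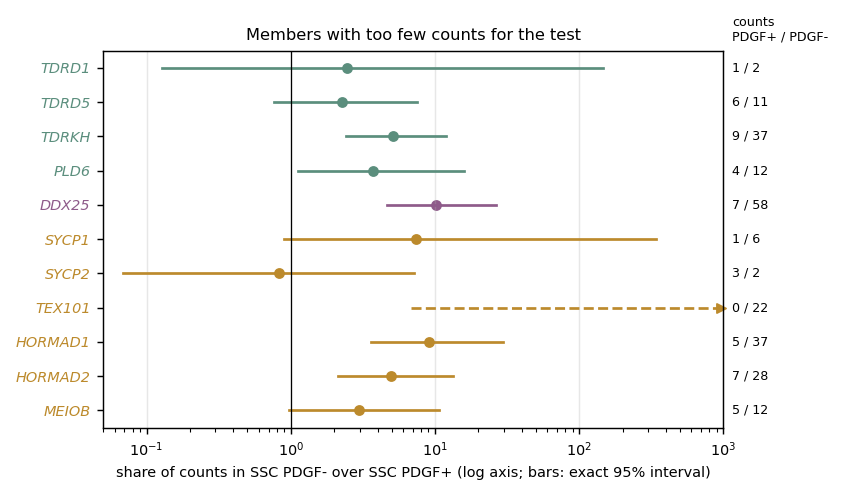
Ratio of the summed share of counts in SSC PDGF- to that in SSC PDGF+ (log axis) for 11 members below the count filter, with exact 95% intervals and the summed counts at the right. The intervals of TDRKH, PLD6, DDX25, HORMAD1 and HORMAD2 lie above 1, and the dashed arrow of TEX101 starts at the lower limit of its exact interval, 6.77.

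The 2 batches were compared next, since the labels put replicate 1 in a batch of its own. Log2 differences within a batch were computed from CPM with 0.5 counts added. All 13 called members were lower in SSC PDGF+ in both batches. This follows from their groups not overlapping and is no separate check on batch. The size was close in YBX2 (-3.43 in batch 1 and -3.46 in batch 2), TDRD9 (-2.60 and -2.59) and HSF2BP (-1.29 and -1.43). It differed more in PIWIL1 (-1.87 and -4.05), DDX4 (-1.24 and -3.53) and SYCE1 (-1.59 and -3.11), and batch 1 held only 1 library per group.

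**Figure D4:**
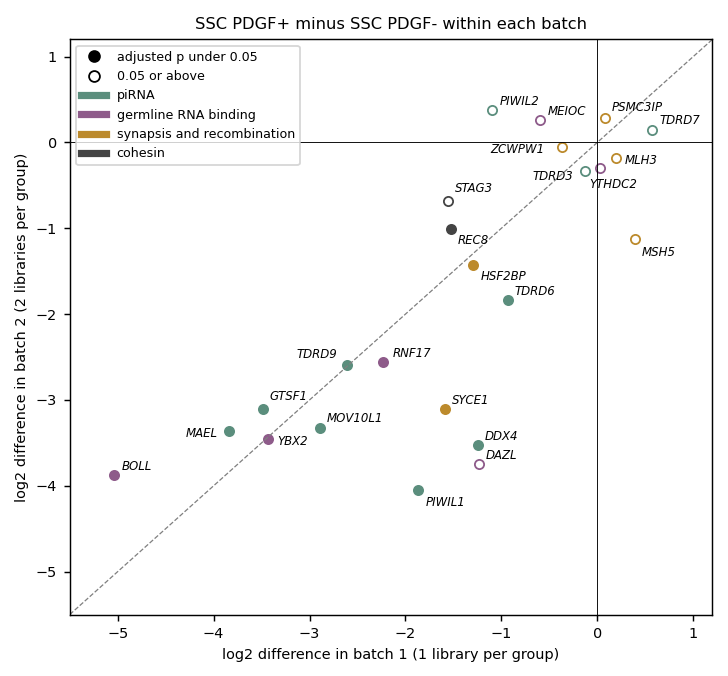
Log2 difference of SSC PDGF+ minus SSC PDGF- in batch 1 (x axis, 1 library per group) against batch 2 (y axis, 2 libraries per group) for the 24 tested members, coloured by role and filled where the adjusted p over all libraries was under 0.05. The dashed line marks equal differences. All filled points lie below and left of 0, with DDX4, SYCE1 and PIWIL1 well below the line.

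Other genes of the same or related pathways were taken from lists chosen with earlier results of these data known. Over all tested genes, edgeR called 10.7% lower and 7.61% higher. Of 18 further genes of the piRNA pathway and related germ cell RNA binding, 15 were listed and 6 tested. In edgeR 4 of these were lower and 0 higher, with a median log2 fold change of -1.55. The 4 were the piRNA enzymes PNLDC1 and HENMT1 and the RNA-binding relatives ADAD1 and ADAD2. HENMT1, ADAD1 and ADAD2 reached the filter level only in SSC PDGF-, so this count and median say little by themselves. Of the 863 tested genes not at that level in every SSC PDGF+ library, 47.5% were called lower. DESeq2 called 3 lower and limma-voom 2, and edgeR called 2 with replicates 2 and 3 of each group summed and 1 of the 3 genes left where every library had to hold at least 10 counts. None was higher at an unadjusted p under 0.05 in edgeR, or with DESeq2 or limma-voom. PNLDC1, which trims the 3' ends of piRNAs, had 60, 56 and 50 counts with PDGF against 153, 155 and 119 without, and fell by 1.68 on the log2 scale (SE 0.21, edgeR adjusted p = 0.00148). ADAD1, an RNA-binding protein of spermatids, had 11, 3 and 3 counts with PDGF against 52, 61 and 33 without (log2 fold change -3.41, SE 0.51, edgeR adjusted p = 0.00336). Neither overlapped between groups, and both calls held with any single library left out. HENMT1, which methylates piRNA ends, and ADAD2, a relative of ADAD1, were also lower (log2 fold changes -1.42 and -3.10, edgeR adjusted p = 0.0443 and 0.0270). Both of these lost the call without any 1 of 5 libraries, that is, all but SSC PDGF- replicate 1, with adjusted p up to 0.156 for HENMT1 and 0.0950 for ADAD2.

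Of 39 further symbols of meiosis genes, some of them alternative names of the same gene, 22 were listed. Of these 9 were tested, of which 3 were lower and 1 was higher, with a median log2 fold change of -0.65. The 3 lower genes reached the filter level in all 3 libraries only in SSC PDGF-, so this count and median say little by themselves. Of the 863 tested genes not at that level in every SSC PDGF+ library, 47.5% were called lower. TEX14, a protein of the bridges between germ cells, TOP6BL, the partner of SPO11, and CNTD1, a crossover maturation factor, were lower by log2 fold changes of -1.57, -2.09 and -1.90 (edgeR adjusted p = 0.0436, 0.0135 and 0.0402). TOP6BL lost the call without SSC PDGF+ replicate 2 or 3 (0.0652 and 0.0667). TEX14 lost it without replicate 2 or 3 of either group (0.117 to 0.137). CNTD1 lost it without SSC PDGF+ replicate 1 or 2 or SSC PDGF- replicate 2 or 3 (0.0789 to 0.134). TRIP13, an ATPase that strips HORMAD proteins from chromosome axes and also acts in the mitotic spindle checkpoint, had 697, 577 and 667 counts with PDGF against 312, 301 and 273 without. It was higher in every SSC PDGF+ library (log2 fold change 0.81, SE 0.14, edgeR adjusted p = 0.0070) and kept the call with any single library left out. With replicates 2 and 3 of each group summed, its adjusted p in edgeR was 0.118 and 0 of these meiosis genes were called lower. STRA8, MEIOSIN, MEI4, PRDM9, RNF212B and MAJIN had no count.

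Genes that serve similar steps in dividing somatic cells were read beside the members. All 14 genes of mitotic cohesin and its regulators were tested, with a median log2 fold change of 0.27, 0 called lower and 1 called higher in edgeR. Also 0 were lower at an unadjusted p under 0.05 and with DESeq2 or limma-voom. The gene called higher was WAPL, which releases cohesin from chromosomes (log2 fold change 0.62, SE 0.15, edgeR adjusted p = 0.0262). All 27 genes of general homologous recombination were tested, with a median of 0.20. In edgeR, 0 were called lower, as with DESeq2 and limma-voom, and 1 at an unadjusted p under 0.05, while EXO1, a nuclease that resects DNA ends, was higher (log2 fold change 0.68, SE 0.19, edgeR adjusted p = 0.0417). Both calls were lost without any 1 of the libraries other than SSC PDGF- replicate 1, with adjusted p up to 0.111 for WAPL and 0.142 for EXO1. With the replicate number as a block, 9 mitotic cohesin genes and 12 recombination genes were higher and 1 recombination gene was lower, in a fit that called 31.1% of all tested genes higher and 29% lower. Batch 2 alone gave 2 lower recombination genes, and the block with GC and length correction gave 5.

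Spermatid markers, of which 12 of 15 were listed, summed to 92.5 to 128 CPM of the library total in SSC PDGF+ and to 697 to 988 in SSC PDGF-, and all 10 that were tested were lower in SSC PDGF+ (median log2 fold change -3.18). The transition protein TNP1 had 374, 491 and 349 counts with PDGF against 2499, 3513 and 3533 without. Late spermatocyte markers, 11 of 12 listed and PIWIL1 among them, summed to 94.6 to 132 CPM of the library total in SSC PDGF+ and 87.1 to 128 in SSC PDGF-, and 5 of 9 tested were lower. AURKA, TBPL1 and CCDC112, which are also expressed outside the germline, held 97.2% of that sum with PDGF and 81.5% without, and the other 8 genes summed to 2.37 to 3.59 and 17.1 to 19.8 CPM of the library total. LDHC, the lactate dehydrogenase of germ cells, had 3, 8 and 11 counts with PDGF against 66, 57 and 77 without (log2 fold change -3.47, edgeR adjusted p = 0.0018). In edgeR 0 of the late spermatocyte markers were higher, with 1 higher at an unadjusted p under 0.05, 1 with DESeq2 and 0 with limma-voom. All 5 that were called lower reached the filter level in all 3 libraries only in SSC PDGF-, so their count says little by itself. Of the 863 tested genes not at that level in every SSC PDGF+ library, 47.5% were called lower. Spermatogonial markers, 11 of 15 listed and PIWIL4 among them, summed to 395 to 427 CPM of the library total in SSC PDGF+ and 368 to 445 in SSC PDGF-, most of it UCHL1 and ID4. The other 9 genes, of which FGFR3 was the most abundant, summed to 8.01 to 18.6 with PDGF and 31.2 to 80.7 without. ID4, a marker of undifferentiated spermatogonia, was at 131 CPM with PDGF and 163 without (log2 fold change -0.32, edgeR adjusted p = 0.122), and UCHL1 was called higher (log2 fold change 0.51, edgeR adjusted p = 0.0319). FGFR3 had 106, 208 and 237 counts with PDGF against 315, 687 and 835 without and was called lower (log2 fold change -2.07, edgeR adjusted p = 0.0189). NANOS2 and DMRT1 were at 0 in every library, and GFRA1 had 3, 0 and 2 counts with PDGF against 9, 2 and 7 without. Counts of the spermatogonial markers thus came mainly from UCHL1, ID4 and FGFR3, with the defining genes NANOS2 and DMRT1 absent. Which cells expressed the 3 abundant genes was not tested. The part of the spermatid and spermatocyte markers in the members' differences was not tested.

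Somatic cell markers were summed in the same way. Summed levels in SSC PDGF- over SSC PDGF+ were 0.602-fold for 7 Sertoli markers, 1.86-fold for 6 peritubular myoid markers, 0.805-fold for 8 Leydig markers, 0.810-fold for 5 endothelial markers and 0.874-fold for 5 myeloid markers. The Sertoli sum was 1523 to 1876 CPM of the library total in SSC PDGF+ and 913 to 1130.3 in SSC PDGF-, and the peritubular myoid sum was 388 to 474 and 732 to 885, and their part in the members' differences was not tested either. Each sum rested on few genes. CLU held 92.4% of the Sertoli sum in SSC PDGF+ and was called higher there (log2 fold change 0.78, edgeR adjusted p = 0.0133), while AMHR2 was called lower (log2 fold change -1.80, edgeR adjusted p = 0.0125) and FATE1 had 0 counts with PDGF against 14, 17 and 2 without. Without CLU the Sertoli sum was 0.940-fold. STAR held 96.3% of the Leydig sum in SSC PDGF+, which was 1.33-fold without it, and IGF1 was called lower (log2 fold change -1.55, edgeR adjusted p = 0.0139). CD68 held 86.3% of the myeloid sum in SSC PDGF+, which was 1.25-fold without it. KDR and PECAM1 held 81.8% of the endothelial sum in SSC PDGF+, and its direction turned without them. TAGLN and ACTA2 held most of the peritubular myoid sum, which was 3.58-fold without them. Of the 4 genes left, DES was at 3.55 CPM with PDGF and 34.4 without (log2 fold change -3.27, edgeR adjusted p = 1.5e-04). The rest of these were not called. CYP11A1 and PTPRC, defining markers of Leydig cells and leukocytes, were at 0, as were the 3 T cell markers listed.

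**Figure D5:**
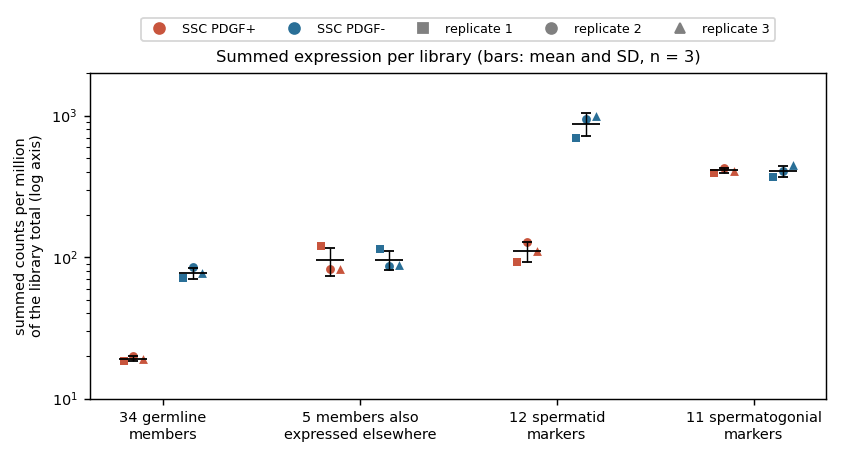
Summed CPM of the library total (log axis) in each library for 34 germline members, the 5 members also expressed elsewhere, 12 spermatid markers and 11 spermatogonial markers, with mean and SD (n = 3 libraries). The germline members (19.2 against 77.6) and the spermatid markers are apart between groups, while the other sets overlap.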

How the data were processed

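Bulk RNA was sequenced from 6 libraries, 3 SSC PDGF+ and 3 SSC PDGF-. The deposited table was taken to hold expected counts per gene without normalization, because 34 values of 13 genes were not whole, and values were rounded before every test. The submitters' processing notes name fastp, HISAT2 2.1.0, SAMtools and featureCounts 2.0.1, with the builds Mmul_10 and Mmul_8.0.1 and no role for either. The handling of strand and of multiply mapped reads is not given in the sources used here. Of the LOC identifiers in the table, 2682 of 2686 were in the RefSeq annotation of Mmul_10, which was used for coordinates, exon lengths and the windows of 250 bases before gene starts. The window of 1 called member is not reported here. Groups came from the sample titles, and 0 columns of other samples were present.

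Counts were normalized by TMM and tested with the quasi-likelihood test of edgeR 4.0.16 (R 4.3.3) after filterByExpr with a minimum of 10 counts, fitted on all genes with Benjamini-Hochberg adjustment. The standard error was taken as the absolute log2 fold change over the root of its F statistic. Members below the filter were summed per group with exact (Clopper-Pearson) 95% intervals, with a floor of 3 counts over a group at 0. Both describe counting error and not PCR duplication, which the counts do not show. At library totals of 10593805 to 14102697 counts, the filter level was 0.8097 CPM.

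Members, companion lists, marker lists and the 5 genes also expressed outside the germline were chosen with earlier results of these data known. Every member could be named, with up to 6 called genes per direction of each companion list and up to 4 abundant or defining markers per marker list. Same-numbered libraries share a batch by the labels, and their deviations from group means correlated at r = 0.73 for number 1, 0.35 for number 2 and 0.37 for number 3, so the number was used as a block. Libraries numbered 2 and 3 correlated as highly across numbers (r = 0.39 and 0.36), so these numbers mark the shared batch and not known pairs. The alternatives were DESeq2 1.42.0, limma-voom (limma 3.58.1), RLE factors or none, other filters on counts, the replicate block, a batch term, batch 2 by itself, replicates 2 and 3 summed, other thresholds and each library left out. The same block with GC content and length corrected, the ratios of low-count members without each library, the marker sums without their most abundant genes and the RNA-binding sum without YBX2 were chosen after seeing the data. The steps were tested on simulated data. Python 3.11.15 with scipy 1.17.1, pandas 2.3.3 and matplotlib 3.10.9 made the tables and plots.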

Additional observations from a re-analysis of the deposited data

How the results depend on the processing

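The 13 members called lower became 3 of 12 tested when every library had to hold at least 10 counts, a filter that removes the members lowest in SSC PDGF+, 6 with replicates 2 and 3 of each group summed, 6 at an adjusted p threshold of 0.01 and 7 to 14 when single libraries were left out, the lowest without SSC PDGF+ replicate 3. With the replicate number as a block there were 15, the same 13 with TDRD3 and DAZL, and the block changed no other call of a member. With replicates 2 and 3 summed and batch as a term, the adjusted p was 0.0703 for TDRD3 and 0.00381 for DAZL. Batch 2 alone gave 17, DESeq2 15 and limma-voom 14. In that order, these fits called 3085 of 11605, 1585 of 13067 and 1201 of 11539 genes lower. The block called 29% of all tested genes lower, and replicates 2 and 3 summed without a batch term gave 487 of 11992. More called members in a fit that called more genes is therefore not firmer support. Of the 13, 7 kept the call with every single library left out (MAEL, MOV10L1, GTSF1, BOLL, YBX2, RNF17 and SYCE1) and 5 with replicates 2 and 3 summed (MAEL, MOV10L1, GTSF1, BOLL and YBX2). The 0 members called higher became 1, TDRD7 of the piRNA genes, with replicates 2 and 3 summed and batch as a term.

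By role, the stricter count filter left 0 called piRNA genes, 1 of germline RNA binding and 1 of synapsis and recombination. Summing replicates 2 and 3 left 3, 3 and 0 of these and 0 cohesin genes, and with batch as a term in the summed fit there were 5 of germline RNA binding and 2 of cohesin. No count filter gave 0 cohesin genes, DESeq2 gave 4 genes of synapsis and recombination, and the block with GC and length correction gave 5 of germline RNA binding. With single libraries left out the ranges were 3 to 8, 3 to 5, 1 to 3 and 0 to 0 in the order piRNA, germline RNA binding, synapsis and cohesin.

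Signs turned only in members that were not called. PIWIL2 was at 0.41 and MEIOC at 0.10 on the log2 scale in batch 2 alone. MLH3 was at 0.033 with replicates 2 and 3 summed and at 0.0019 with batch as a term besides. With single libraries left out, PIWIL2 ranged from -0.46 to 0.21, MEIOC from -0.49 to 0.10, YTHDC2 from -0.50 to 0.054, MLH3 from -0.24 to 0.075 and ZCWPW1 from -0.35 to 0.11. The cause was not tested for any of these changes. Over all genes, 1230 were lower and 878 higher, against 2506 and 4080 in the block with GC and length correction. Members with fewer than about 10 counts per library were limited by depth.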
